A study of Mus musculus with 20 samples.

Results

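The transcripts described here are those of 5 mouse genes of the Ly6 family of surface proteins, Ly6i, Ly6a, Ly6c1, Ly6c2 and Ly6e, taken by gene symbol from a table of 14633 genes in HEPA1-6 tumors. Ly6i was selected on its FPKM in control antibody + GSK343 tumors against control antibody tumors, so its values in that comparison are a description of what chose it. The other 4 are its relatives, and all 5 were in the table and passed the filter on low values. Ly6i had at least 1 FPKM (fragments counted on a gene, scaled by gene length and by the library's total, so that levels compare per length) in 12 of 19 libraries, 7 of them outside the tumors that received GSK343 with the control antibody, and each of the others did so in all 19.

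HEPA1-6 is a mouse hepatoma cell line. It was injected under the skin of C57/BL6 mice, the tumors grew for 4 weeks, and poly-A RNA of whole tumors was sequenced. Tumors received an antibody against the chemokine CXCL10 together with GSK343 (5 libraries), a control antibody together with GSK343 (5 libraries), the anti-CXCL10 antibody without GSK343 (5 libraries), or the control antibody without GSK343 (4 libraries: replicates 1, 2, 3 and 5; replicate 4 was not analysed here). GSK343 inhibits EZH2, the enzyme of Polycomb repressive complex 2 (PRC2) that methylates histone H3 on lysine 27. CXCL10 is an interferon-induced chemokine that draws T cells and natural killer (NK) cells. A whole tumor holds the injected cells and the host's blood vessels, connective tissue and immune cells. The hepatoma markers were high in every group: Alb averaged 3212, 2216, 3579 and 3004 FPKM in anti-CXCL10 + GSK343, control antibody + GSK343, anti-CXCL10 and control antibody tumors. Whether each tumor grew in an animal of its own is not in the labels, and p-values then cover only the spread between the sequenced samples, which may be technical. Control antibody + GSK343 replicates 3, 4 and 5 were highest in 14 skeletal muscle markers (mean log2(FPKM + 1) of 4.81, 6.78 and 4.6, against 3.95 at most in the other 16 libraries). Some results that rest on these libraries are given with and without them, and others only with them. The labels' sample-sheet numbers run once over both control-antibody groups and again over both anti-CXCL10 groups, so an effect of the antibody and one of that numbering set cannot be told apart, whereas each comparison of GSK343 lies within 1 set.

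Ly6 proteins are small cysteine-rich proteins that share a fold with the urokinase receptor, and most are held on the outer face of the cell membrane by a glycolipid anchor. Several mark blood cell types in mice: Ly6C, the product of Ly6c1 and Ly6c2, marks inflammatory monocytes and is also found on some T cells and endothelial cells, and Ly6A (Sca-1) marks blood stem cells, activated lymphocytes and many other cells. Transcription of Ly6a, Ly6c and Ly6e genes is known to be raised by interferons.

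The 5 genes lie close together on chromosome 15 (GRCm38), all protein-coding, with the same coordinates in GENCODE M21 and no overlap with another listed gene. Ly6e (74955051 to 74959905, ENSMUSG00000022587) is on the plus strand. Ly6i (74979534 to 74983430, ENSMUSG00000022586), Ly6a (74994877 to 74998031, ENSMUSG00000075602), Ly6c1 (75044018 to 75048830, ENSMUSG00000079018) and Ly6c2 (75108158 to 75111970, ENSMUSG00000022584) follow on the minus strand. The main transcripts of Ly6c1 (844 bases) and Ly6c2 (822 bases) were identical over 97.6% of the shorter one, those of Ly6a and Ly6i over 86.1%. Of all 50-base stretches of the annotated transcripts of each gene, 21.5% of those of Ly6c1 also occurred in Ly6c2 and 11.1% in Ly6a, and 2.68% of those of Ly6i in Ly6a. Counted against all other annotated genes, 32.8% of the stretches of Ly6c1, 18.97% of those of Ly6a, 14.4% of those of Ly6c2, 4.76% of those of Ly6i and 0% of those of Ly6e occurred elsewhere. The sources used here do not say to which copy such shared fragments were assigned, so the split between Ly6c1, Ly6c2 and Ly6a, and to a lesser part Ly6i, is uncertain.

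Ly6c1 and Ly6c2 are the pair that varied together most closely below, and the 250 bases before their transcription starts are shown because the likeness of the genes reaches into them. Both are RefSeq sequences of GRCm38.p6 on the minus strand, at chr15:75048838-75049087 for Ly6c1 and chr15:75111972-75112221 for Ly6c2, and capitals mark runs of at least 8 bases that are identical in both when aligned.
Ly6c1: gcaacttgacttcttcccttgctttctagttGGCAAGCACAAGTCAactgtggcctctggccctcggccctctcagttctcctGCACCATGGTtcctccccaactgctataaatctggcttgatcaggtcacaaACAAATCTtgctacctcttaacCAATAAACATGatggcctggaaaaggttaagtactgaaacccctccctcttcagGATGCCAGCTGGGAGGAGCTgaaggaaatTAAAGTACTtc
Ly6c2: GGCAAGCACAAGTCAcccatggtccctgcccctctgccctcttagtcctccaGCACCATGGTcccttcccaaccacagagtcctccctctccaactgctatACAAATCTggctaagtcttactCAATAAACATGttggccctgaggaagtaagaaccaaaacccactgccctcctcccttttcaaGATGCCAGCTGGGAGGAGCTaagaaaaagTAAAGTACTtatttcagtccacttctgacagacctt
In the alignment 164 of 250 bases (65.6%) were identical, and 6 runs of at least 8 bases, the longest of 20, held 73 of them. The interferon-gamma activated motif TTCNNNGAA was searched on both strands and was in neither window, while 7.02% of 32851 windows of this length held it. The core of the interferon-stimulated response element, a GAAA block repeated after 2 bases, was searched in the same way, was held by 2.98% of the windows and was in neither. GAGGAAGT, a core bound by the myeloid factor PU.1 that was chosen after these sequences had been read, was found 1 time in the Ly6c2 window and 0 times in that of Ly6c1, with 2.44% of all windows holding it. These are matches of letters only.

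Ly6i, the gene with the lowest level of the 5, differed most between libraries. In control antibody + GSK343 tumors it had 2.24, 4.45, 7.91, 17.7 and 5.87 FPKM in replicates 1 to 5, against 0.634, 1.32, 1.24 and 0.862 FPKM in control antibody tumors. Each of the 5 GSK343 libraries lay above the highest control library, with replicate 4 far above the rest. The means were 7.64 ± 6.01 FPKM (SD, n = 5) and 1.02 ± 0.325 FPKM (SD, n = 4), a ratio of 7.52, and the difference on the log2(FPKM + 1) scale was 1.86 ± 0.35 (SE). No test is given, since this is the comparison that picked the gene. Over all genes tested, 4.05% had no overlap between these groups with GSK343 higher, and 4.36% passed at an adjusted p under 0.05 in that direction (5.47% in either direction).

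With the anti-CXCL10 antibody present, Ly6i was near 1 FPKM with and without the drug. It had 1.14, 1.23, 2.32, 1.24 and 0.553 FPKM in anti-CXCL10 + GSK343 tumors, against 1.47, 0.455, 0.789, 0.909 and 0.485 FPKM in anti-CXCL10 tumors. The groups overlapped, and the difference of 0.32 ± 0.33 (SE) had a 95% interval from -0.37 to 1.01 and an adjusted p of 1.0 (limma, over all 14385 genes tested). By limma 0 of those genes passed in this comparison (0% in either direction), and 418 had an unadjusted p under 0.05 (2.91%). Between the antibodies, which is a description for this gene because the libraries are in part those that picked it, Ly6i was lower by 1.70 ± 0.33 in anti-CXCL10 + GSK343 than in control antibody + GSK343 tumors, and the difference of anti-CXCL10 from control antibody tumors without the drug was -0.16 ± 0.35. One anti-CXCL10 + GSK343 library, replicate 3 at 2.32 FPKM, lay just above the lowest control antibody + GSK343 library at 2.24 FPKM, and the other 4 lay below all 5.

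**Figure D1:**
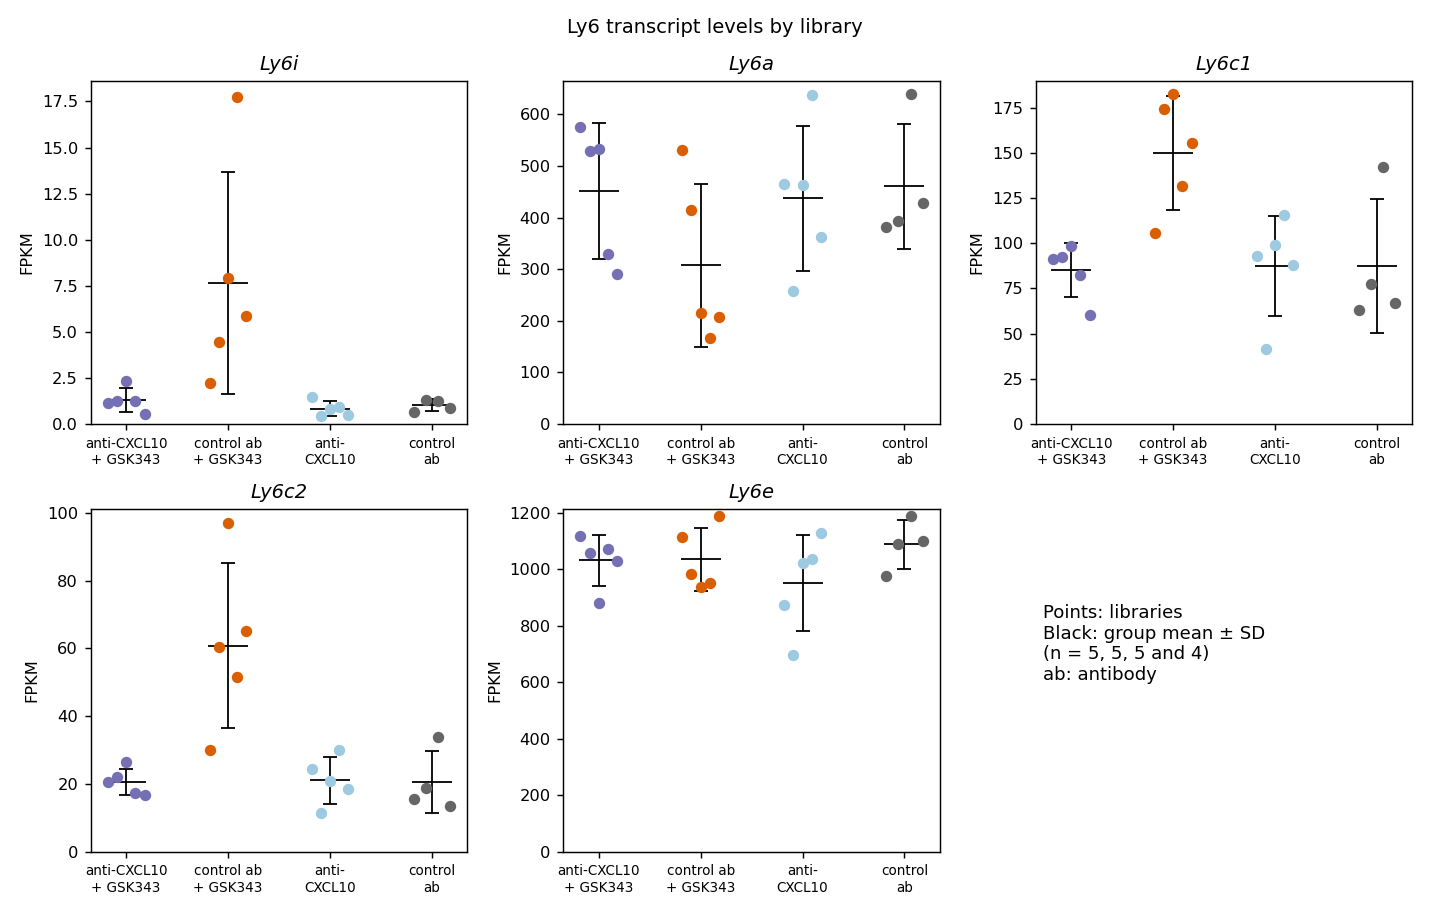
FPKM of each of the 5 Ly6 genes (vertical axes, each from 0) in every library, by treatment group, with the group mean and SD in black (n = 5, 5, 5 and 4). Ly6i, Ly6c1 and Ly6c2 are highest in control antibody + GSK343 tumors (Ly6i 2.24 to 17.7 FPKM), Ly6a has its 3 lowest libraries there, and Ly6e stays between 696 and 1189 FPKM throughout.

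Ly6c2 and Ly6c1 encode the 2 forms of the monocyte antigen Ly6C. Ly6c2 had 20.6, 21.99, 26.4, 17.3 and 16.9 FPKM in anti-CXCL10 + GSK343 tumors, against 30.03, 60.5, 96.9, 51.6 and 65.0 FPKM in control antibody + GSK343 tumors. All 5 libraries with anti-CXCL10 lay below the lowest library with the control antibody, as 4.65% of all genes did. Ly6c2 fell by 1.44 ± 0.29 on the log2(FPKM + 1) scale (means 20.6 ± 3.91 and 60.8 ± 24.3 FPKM, SD, n = 5 each; adjusted p = 0.00586, limma; 95% interval -2.04 to -0.83), in a comparison where 6.64% of all genes fell and 10.1% changed in either direction. The adjusted p lay between 0.000993 and 0.0190 when each of the 19 libraries was left out in turn. It was 0.113, with a difference of -1.03 ± 0.36, without the 3 control antibody + GSK343 libraries highest in skeletal muscle markers (replicates 3, 4 and 5), which leaves 2 libraries in that group. The control antibody + GSK343 libraries are also among those that picked Ly6i, which Ly6c2 followed over all libraries (r = 0.85). The p-values of the Ly6 genes in this comparison are therefore not free of that choice.

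Without GSK343 the Ly6c2 levels under the 2 antibodies lay close together. The gene had 24.3, 11.4, 20.9, 30.1 and 18.5 FPKM in anti-CXCL10 tumors, against 15.6, 18.9, 33.7 and 13.5 FPKM in control antibody tumors. These ranges overlapped over most of their length, and the difference was 0.06 ± 0.31 (adjusted p = 0.980, limma; 95% interval -0.58 to 0.71). In that comparison 2 of all genes passed (0.0139%), both lower with anti-CXCL10. With anti-CXCL10 present, GSK343 gave a Ly6c2 difference of 0.02 ± 0.29 (adjusted p = 1.0, limma; 95% interval -0.59 to 0.62). With the control antibody present, the levels above place 4 of 5 GSK343 libraries over the highest control library, a ratio of means of 2.98 and a difference of 1.52 ± 0.31, given without a test because the same libraries picked Ly6i. This comparison and that of the antibodies with GSK343 share the control antibody + GSK343 libraries, so their values are not independent.

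Ly6c1 had 91.3, 92.3, 98.8, 82.5 and 60.5 FPKM in anti-CXCL10 + GSK343 tumors, against 106, 174, 183, 132 and 155 FPKM in control antibody + GSK343 tumors. The groups did not overlap, with means of 85.1 ± 14.9 and 150 ± 31.6 FPKM (SD, n = 5 each), and the difference of -0.80 ± 0.26 had an adjusted p of 0.0538 (limma; 95% interval -1.34 to -0.26), just short of the threshold. Leaving out control antibody replicate 3, control antibody + GSK343 replicate 1, or anti-CXCL10 replicate 2 or 4 took it past 0.05 (lowest adjusted p 0.0191), and the other 15 such fits did not (highest 0.142). When the FPKM of Ly6c1 and Ly6c2 were added and taken as 1 gene, the sum fell by 0.97 ± 0.26 (adjusted p = 0.0273, limma). The sum lessens the weight of their uncertain split but does not remove it, since each FPKM is scaled by its own gene's length. It leaves the split with Ly6a as it was.

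Without GSK343, Ly6c1 had 92.9, 41.6, 99.3, 116 and 87.8 FPKM in anti-CXCL10 tumors, against 63.1, 77.5, 142 and 66.7 FPKM in control antibody tumors. The difference was 0.01 ± 0.27 (adjusted p = 0.998, limma; 95% interval -0.57 to 0.58), and that of GSK343 with anti-CXCL10 was 0.02 ± 0.26 (adjusted p = 1.0; 95% interval -0.52 to 0.56). With the control antibody, 3 of 5 GSK343 libraries lay above the highest control library, with a difference of 0.83 ± 0.27 that is not tested here. The ratio of the 2 genes was highest in the control antibody + GSK343 group, given without a test: Ly6c2 was 24.4 ± 2.89% of Ly6c1 in anti-CXCL10 + GSK343 tumors, 39.4 ± 9.15% in control antibody + GSK343 tumors, 24.4 ± 3.06% in anti-CXCL10 tumors and 23.3 ± 2.08% in control antibody tumors (SD, n = 5, 5, 5 and 4). Replicates 3, 4 and 5 of control antibody + GSK343, high in muscle markers, had 53.0, 39.1 and 41.9%. Replicates 1 and 2 had 28.4 and 34.7%, against 27.9% at most in the other groups.

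**Figure D2:**
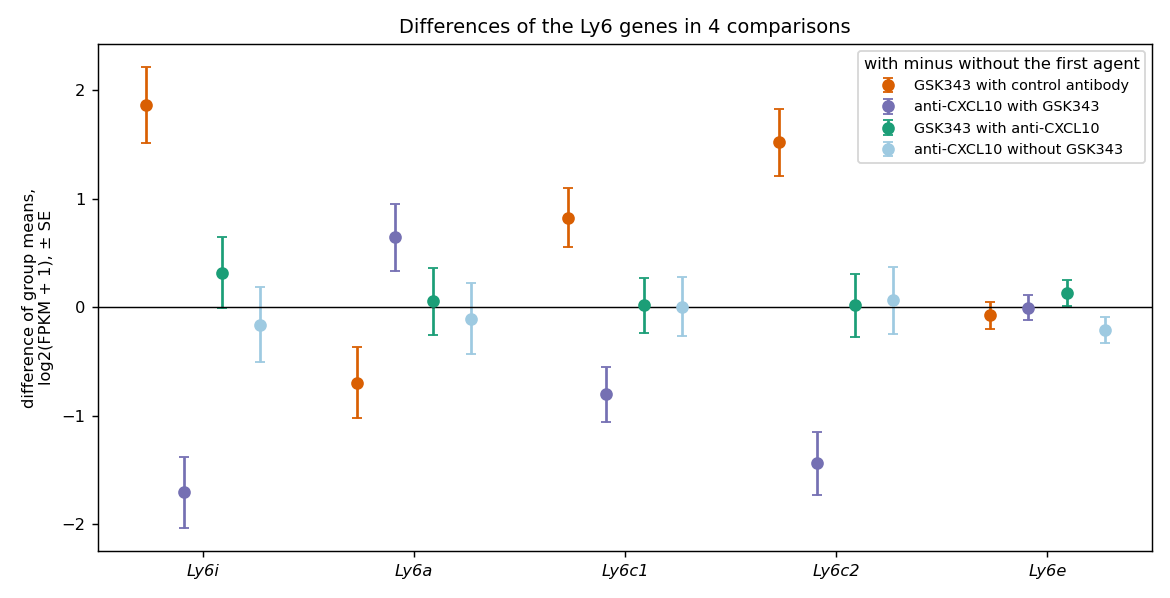
Differences of group means on the log2(FPKM + 1) scale, with their SE, for each Ly6 gene in 4 comparisons between pairs of groups. Ly6i, Ly6c1 and Ly6c2 have positive values for GSK343 with the control antibody (1.86, 0.83 and 1.52) and negative ones for anti-CXCL10 with GSK343 (-1.70, -0.80 and -1.44), which share 5 libraries, while the values of the other comparisons lie between -0.21 and 0.32 for all 5 genes.

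Ly6a, the Sca-1 antigen, had the opposite sign. It had 576, 530, 532, 329 and 290 FPKM in anti-CXCL10 + GSK343 tumors, against 532, 415, 216, 167 and 208 FPKM in control antibody + GSK343 tumors. Replicates 3, 4 and 5 of the control antibody + GSK343 group were the 3 lowest of all 19 libraries, and the other 2 lay among the rest, so that the difference of 0.64 ± 0.31 had an adjusted p of 0.200 (limma; 95% interval -0.01 to 1.3). Ly6a had 465, 258, 462, 638 and 363 FPKM in anti-CXCL10 tumors, against 383, 393, 640 and 428 FPKM in control antibody tumors, a difference of -0.11 ± 0.33 (adjusted p = 0.969, limma). With anti-CXCL10, GSK343 gave a difference of 0.06 ± 0.31 (adjusted p = 1.0; 95% interval -0.60 to 0.71), and with the control antibody, not tested here, one of -0.70 ± 0.33. Without the 3 low libraries these became -0.11 ± 0.33 for anti-CXCL10 with GSK343 (adjusted p = 0.872) and 0.06 ± 0.34 for GSK343 with the control antibody.

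Ly6e, the most abundant of the 5, is best known as a factor that acts on virus entry, and it varied least. It averaged 1030 ± 90.8 FPKM in anti-CXCL10 + GSK343 tumors (878 to 1118), 1034 ± 111 in control antibody + GSK343 tumors (938 to 1189), 951 ± 169 in anti-CXCL10 tumors (696 to 1127) and 1088 ± 85.8 in control antibody tumors (977 to 1186; SD, n = 5, 5, 5 and 4). The highest of the 19 libraries held 1.71 times the lowest, against 39.0 times for Ly6i, 8.50 for Ly6c2, 4.4 for Ly6c1 and 3.84 for Ly6a. The figure of Ly6i divides 17.7 FPKM, in a library of the comparison that picked it, by 0.455 FPKM, a value below 1 FPKM. The differences were 0.13 ± 0.12 for GSK343 with anti-CXCL10 (95% interval -0.11 to 0.38), -0.21 ± 0.12 for anti-CXCL10 without GSK343 (-0.47 to 0.05) and 0.00 ± 0.12 for anti-CXCL10 with GSK343 (-0.25 to 0.24), with adjusted p of 1.0, 0.754 and 0.990 (limma). The sum of the 5 genes was 1589 ± 164 FPKM in anti-CXCL10 + GSK343 tumors, 1560 ± 182 in control antibody + GSK343 tumors, 1497 ± 303 in anti-CXCL10 tumors and 1657 ± 242 in control antibody tumors (SD, n = 5, 5, 5 and 4), with overlapping ranges. Of it, Ly6a made up 19.1% in control antibody + GSK343 tumors and 27.5% in control antibody tumors, while Ly6c1 and Ly6c2 together averaged 211 and 108 FPKM.

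In all, of the 5 genes 0 passed for GSK343 with anti-CXCL10 by limma, where 0% of all genes did and 2.91% had an unadjusted p under 0.05. Of the 4 tested for the antibody, 0 passed without GSK343, where 0.0139% of all genes did. With GSK343, 1 (Ly6c2) passed, where 10.1% of all genes did, in a comparison that shares libraries with the one that picked Ly6i. The GSK343 difference in anti-CXCL10 tumors minus that in control antibody tumors was -1.54 ± 0.48 for Ly6i, -1.5 ± 0.42 for Ly6c2, -0.81 ± 0.37 for Ly6c1, 0.75 ± 0.45 for Ly6a and 0.21 ± 0.17 for Ly6e. These interaction values contain the comparison that picked Ly6i and are not tested here, and 9 of all genes (0.0626%) passed the test of the interaction.

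By their means, Ly6i, Ly6c1 and Ly6c2 were highest in control antibody + GSK343 tumors and close together in the other 3 groups. For each of the 5 genes, neighbours in the order of group means had ranges that overlapped. For Ly6i, the group next to control antibody + GSK343 was anti-CXCL10 + GSK343, whose replicate 3 reached into it. For Ly6c1 and Ly6c2 that group was anti-CXCL10 (highest library 116 FPKM for Ly6c1 and 30.1 FPKM for Ly6c2). The correlations that follow are over 19 libraries on the log2(FPKM + 1) scale, whose points share the library, its depth and its group, and are descriptions with no test. Ly6c1 and Ly6c2 had a Pearson r of 0.93 (Spearman rho 0.97), and 0.89 (0.92) after the group means were subtracted. Leaving out the 2 libraries farthest from the median of Ly6c2 gave 0.93 and 0.87. The shared sequence of this pair can add to that likeness and its part was not tested. Ly6i and Ly6c2 had r = 0.85 over all libraries and 0.50 within groups, which became 0.25 without those 2 libraries. Ly6i and Ly6a had r = -0.58 over all libraries and rho = -0.10, and r = -0.17 without the 2 libraries farthest in Ly6a, so the negative value rests on those libraries.

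Among 11731 named genes, those most like each Ly6 gene over the 19 libraries differed from one Ly6 gene to the next. They were ranked by Pearson r, include the group differences described above and are given with no test. Ranked by Spearman rho over all libraries, 1 of the 3 named genes stayed among the first 3 for Ly6i, 0 for Ly6a, 2 for Ly6c1, 1 for Ly6c2 and 1 for Ly6e. Ly6i was most like Lyz2, the lysozyme of macrophages and neutrophils (r = 0.98, rho = 0.94), its near-identical copy Lyz1 (0.97, rho = 0.86) and Clec4n, a myeloid lectin receptor (0.94, but rho = 0.77, rank 206 by that measure). Lyz2 was again first after the group means were subtracted (0.95, and 0.85 without the 2 libraries farthest in Lyz2). That value is not free of the choice of Ly6i, whose spread was largest in the control antibody + GSK343 libraries that helped pick it. Its SD on the log2(FPKM + 1) scale was 0.93 there and 0.24 to 0.39 in the other groups. Lyz2 had 182, 213, 252, 206 and 155 FPKM in anti-CXCL10 + GSK343 tumors, against 222, 316, 589, 969 and 518 FPKM in control antibody + GSK343 tumors. It ranged from 128 to 217 FPKM in anti-CXCL10 tumors and from 139 to 197 FPKM in control antibody tumors. As for Ly6i, replicate 4 of control antibody + GSK343 was the highest of all libraries and replicate 1 the lowest of its group.

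Ly6c2 was most like Penk, which encodes proenkephalin (0.98, and 0.93 within groups), Irg1, which makes itaconate in activated macrophages (0.97), and Ms4a6d (0.95), and within groups also Cxcl9, an interferon-gamma induced chemokine (0.93). Ly6c1 was most like the interferon-induced ubiquitin-like gene Ubd (0.93), Ly6c2 (0.93) and the nucleic acid sensor Zbp1 (0.93), and within groups Penk (0.90), Ifi27l2a (0.90) and Ly6c2. Ly6a and Ly6e had lower values and other partners. For Ly6a these were Rps4x of the ribosome (0.76, rho = 0.71), Camk2n1 and Dhrs3 (rank 66 by rho), and within groups Tpt1 (0.84), Chmp2a and Psme2b. For Ly6e they were Timm50 of the mitochondrial import machinery (0.85, but rho = 0.67, rank 128), Fam195b and Dut, and within groups Ece2 (0.87), Mrpl45 and Mrpl36, the last 2 of the mitochondrial ribosome.

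The genes beside the family on the chromosome were looked at for the same differences. Of 10 genes in the table that start within 500 kb of a member, 9 were tested, and 0 passed in any of the 4 comparisons, while 5.47% of all genes did for GSK343 with the control antibody. Among the 9 tested, the largest difference of GSK343 with the control antibody was that of Ly6d, a marker of lymphoid progenitors and keratinocytes. Ly6d had 12.8 ± 5.81 FPKM in control antibody + GSK343 tumors and 27.9 ± 10.5 FPKM in control antibody tumors (difference -1.09 ± 0.35, adjusted p = 0.0859, limma). Ly6g, the neutrophil antigen, had 1.17 ± 0.744 and 1.46 ± 0.578 FPKM in these groups, a difference of -0.21 ± 0.27. Ly6f had 17.8 ± 7.87 and 20.5 ± 10.03 FPKM and a difference of -0.19 ± 0.31. Gpihbp1, which carries lipoprotein lipase to the capillary surface, had 10.7 ± 3.52 and 14.3 ± 4.75 FPKM and a difference of -0.38 ± 0.24. The differences of Lynx1 (0.11), Them6 (-0.21), Jrk (-0.09), BC025446 (-0.08) and 9030619P08Rik (-0.63) did not pass either, and the median over the 9 was -0.21. The remaining neighbour, I830127L07Rik, did not pass the filter on low values and was not tested. Its level was highest in control antibody + GSK343 tumors, at 1.34 ± 0.294 FPKM (SD). It had 0.549 ± 0.195 FPKM in anti-CXCL10 + GSK343, 0.369 ± 0.240 in anti-CXCL10 and 0.374 ± 0.157 in control antibody tumors.

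**Figure D3:**
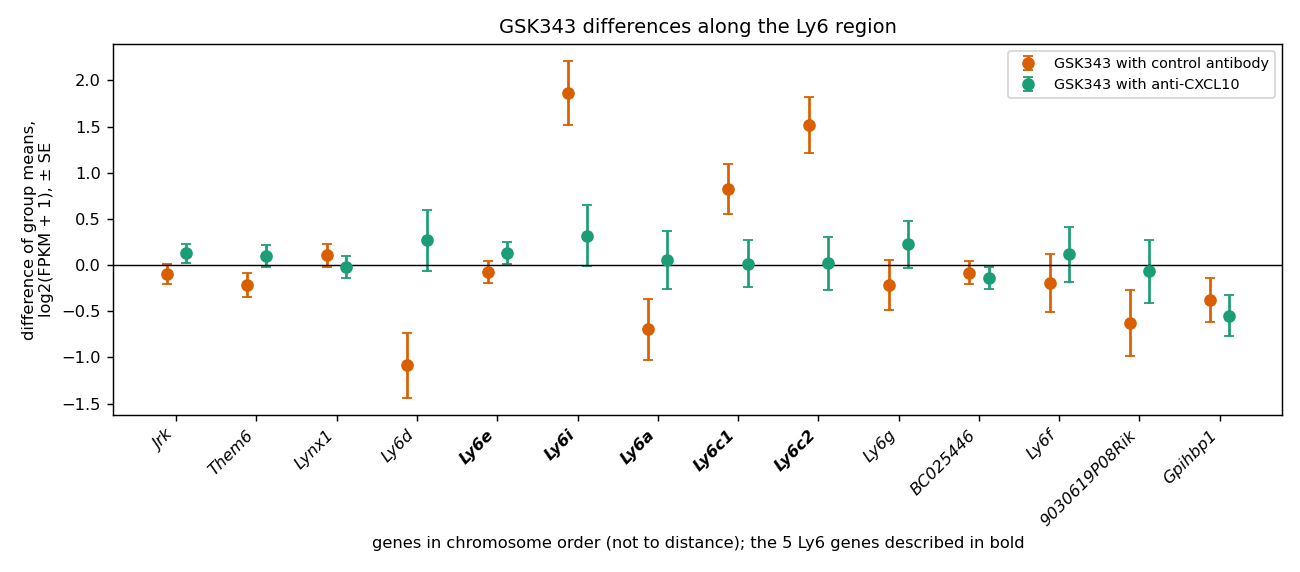
Differences for GSK343 with the control antibody and with anti-CXCL10 (log2(FPKM + 1) scale, with SE) for the 5 Ly6 genes, in bold, and 9 tested neighbours, in chromosome order and not to distance. Ly6i, Ly6c1 and Ly6c2 stand above these tested neighbours with the control antibody (1.86, 0.83 and 1.52). Ly6d stands lowest (-1.09), and with anti-CXCL10 the 5 Ly6 genes lie between 0.02 and 0.32.

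Of 35 other genes listed as Ly6/uPAR relatives, 10 were in the table. With the control antibody, GSK343 tumors had Plaur, the urokinase receptor, at 80.6 FPKM and control tumors at 59.2 FPKM (0.43 ± 0.12, adjusted p = 0.0398, limma), and Bambi at 1.42 and 2.90 FPKM (-0.71 ± 0.17, adjusted p = 0.0193). Bambi is a decoy receptor of the TGF-beta family and was listed by mistake. It had 2.59 FPKM in anti-CXCL10 + GSK343 tumors and 1.42 FPKM in control antibody + GSK343 tumors (0.56 ± 0.16, adjusted p = 0.0309). The other members of the list did not pass. For GSK343 with the control antibody 2 of 10 were thus called, where 5.47% of all genes were. For anti-CXCL10 with GSK343 Bambi was the only gene of the list called, 1 of 10, where 10.1% of all genes were. The counts of the list include Bambi, as does the list's median difference of -0.29 for GSK343 with the control antibody, beside -0.03 over all genes. With 1 library left out, neither Plaur nor Bambi was called for GSK343 with the control antibody without control antibody replicate 1 or control antibody + GSK343 replicate 2 or 3. In the same comparison only 1 of the list was called without control antibody replicate 2, 3 or 5, control antibody + GSK343 replicate 4 or 5, or anti-CXCL10 + GSK343 replicate 2 or 3. For anti-CXCL10 with GSK343, 0 genes of the list were called without control antibody + GSK343 replicate 2, 3 or 4 or anti-CXCL10 + GSK343 replicate 4 or 5, and 2 without control antibody + GSK343 replicate 1 or anti-CXCL10 replicate 2. Without the 3 libraries highest in muscle markers 0 genes of the list were called in either comparison. In fits of the 2 compared groups alone 1 was called for GSK343 with the control antibody and 0 for anti-CXCL10 with GSK343.

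Interferon signals are a known inducer of Ly6 genes. Listed genes of that pathway were called for anti-CXCL10 with GSK343 and for GSK343 with the control antibody. In these comparisons, in that order, the differences were -1.70 and 1.86 for Ly6i, -1.44 and 1.52 for Ly6c2 and -0.80 and 0.83 for Ly6c1. They were 0.64 and -0.70 for Ly6a and -0.0037 and -0.076 for Ly6e. The part of interferon in the Ly6 levels was not tested. Of 16 genes of interferon signalling, 6 rose and 0 fell with GSK343 in control antibody tumors (median 0.37; 4.36% of all genes rose), 0 passed for GSK343 with anti-CXCL10 and 0 for anti-CXCL10 without GSK343. Of the same 16 genes, 6 fell and 0 rose for anti-CXCL10 with GSK343 (median -0.36; 6.64% of all genes fell). Ifng, interferon gamma itself, averaged 3.60 FPKM in anti-CXCL10 + GSK343 tumors against 10.6 FPKM in control antibody + GSK343 tumors (-1.19 ± 0.29, adjusted p = 0.0150, limma), and 2.61 FPKM in control antibody tumors (1.52 ± 0.30 for GSK343 with the control antibody, adjusted p = 0.00756). Socs1, a feedback inhibitor of interferon signals, rose by 1.3 ± 0.26 with GSK343 in control antibody tumors (adjusted p = 0.00756), and Irf7, a transcription factor of the interferon response, fell by 1.06 ± 0.29 with anti-CXCL10 in GSK343 tumors (adjusted p = 0.0289).

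Of 31 interferon-induced genes, 21 rose with GSK343 in control antibody tumors (median 0.92; 4.36% of all genes rose). With anti-CXCL10 in GSK343 tumors 15 fell (median -0.73; 6.64% of all genes fell), with 0 in the opposite direction and 0 called in the other 2 comparisons. Gbp2, a guanylate-binding protein, averaged 546 FPKM in control antibody + GSK343 tumors and 206 FPKM in control antibody tumors (1.37 ± 0.33, adjusted p = 0.0204, limma), and Cxcl9 161 and 60.5 FPKM (1.34 ± 0.34, adjusted p = 0.0260). Oas2 and Rsad2, both antiviral enzymes, fell with anti-CXCL10 in GSK343 tumors by 1.11 ± 0.29 and 1.08 ± 0.30 (adjusted p = 0.0230 and 0.0297). The counts of rises were smaller, at 6, 7, 10 and 10 of 31 and 2, 3, 3 and 3 of 16, without control antibody replicate 1 or 5 or control antibody + GSK343 replicate 2 or 3. The falls with anti-CXCL10 numbered 5 to 8 of 31 without control antibody + GSK343 replicate 2 or 3 or anti-CXCL10 + GSK343 replicate 1, 3 or 5, and 23 without control antibody + GSK343 replicate 1. They numbered 2 of 16 without control antibody + GSK343 replicate 2 or 3 or anti-CXCL10 + GSK343 replicate 1, 4 or 5. In fits of the 2 compared groups alone, 8 of 31 and 1 of 16 rose, with 233 in place of 787 of all genes passing, and 3 of 16 fell with anti-CXCL10. Without the 3 libraries highest in muscle markers, 0 of 31 and 0 of 16 rose, when 15 of all genes passed, and 3 of 31 and 0 of 16 fell with anti-CXCL10.

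Markers of cells that can carry Ly6 proteins, and of others, differed in the same comparisons. For GSK343 with the control antibody, 9 of 12 macrophage genes, 4 of 12 monocyte genes, 11 of 12 T cell genes, 3 of 5 NK cell genes and 4 of 4 B and plasma cell genes rose, as did 1 of 5 neutrophil, 1 of 12 fibroblast and 1 of 14 skeletal muscle genes, where 4.36% of all genes rose. Of 12 hepatoma genes 3 fell, where 1.11% of all genes fell. For dendritic cell, endothelial, keratinocyte and PRC2 genes 0 passed (of 6, 12, 7 and 10). For anti-CXCL10 with GSK343, 10 macrophage, 4 monocyte, 10 T cell, 3 NK, 4 B and plasma cell, 2 neutrophil, 3 dendritic, 2 endothelial, 6 fibroblast and 1 muscle gene fell, where 6.64% of all genes fell. There 5 hepatoma genes rose, where 3.48% of all genes rose, and 0 keratinocyte and PRC2 genes passed. For GSK343 with anti-CXCL10, 0 genes of any list passed by limma, as 0 of all genes did. In whole tumors, a difference in the number of cells of a type and one in RNA per cell cannot be told apart.

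These marker counts depended on single libraries and on the fit. For GSK343 with the control antibody, 6 or 7 T cell genes rose without control antibody replicate 1 or 5 or control antibody + GSK343 replicate 3. In the same comparison 2 monocyte genes rose without either of those control libraries or control antibody + GSK343 replicate 2, 3 or 4. The B and plasma cell count was 1 or 2 without control antibody replicate 1 or 2 or control antibody + GSK343 replicate 2 or 3. For anti-CXCL10 with GSK343, 5 or 6 T cell genes fell without control antibody + GSK343 replicate 2, 3 or 5 or anti-CXCL10 + GSK343 replicate 3 or 5, and 2 monocyte genes fell without replicate 2 or 3 of the first group or replicate 1, 2, 4 or 5 of the second. Without control antibody + GSK343 replicate 1, which had low muscle markers, the counts were larger: 5 fibroblast, 9 muscle and 6 hepatoma genes for GSK343 with the control antibody and 11 fibroblast and 12 muscle genes for anti-CXCL10 with GSK343. The fibroblast count of GSK343 with the control antibody was 0 without control antibody replicate 1, 2 or 5 or control antibody + GSK343 replicate 3, 4 or 5, and the muscle count was 0 without any of these or control antibody replicate 3. The hepatoma count was 1 for GSK343 with the control antibody without control antibody replicate 1 or control antibody + GSK343 replicate 2, 3 or 4, and 2 or 3 for anti-CXCL10 with GSK343 without control antibody + GSK343 replicate 2, 3, 4 or 5 or anti-CXCL10 + GSK343 replicate 1, 3 or 5. Over all fits with 1 library left out, the macrophage counts lay between 6 and 11 and the NK cell counts between 2 and 4, and those of neutrophil, dendritic cell and endothelial genes between 0 and 3. In fits of the 2 compared groups alone, 1 macrophage, 1 monocyte, 4 T cell, 1 NK cell and 1 B and plasma cell gene rose with GSK343 in control antibody tumors, and 0 neutrophil, 0 fibroblast and 0 muscle genes did. In such fits for anti-CXCL10 with GSK343, 1 monocyte, 5 T cell, 2 NK cell, 1 neutrophil, 1 dendritic cell and 5 fibroblast genes fell. There 3 hepatoma genes rose, and the macrophage and the B and plasma cell counts were again 10 and 4. Without the 3 libraries highest in muscle markers, 0 genes of these lists passed in that comparison, and 1 macrophage and 2 B and plasma cell genes fell for anti-CXCL10 with GSK343.

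Of the first 2 genes of each list, taken as its defining markers, those of the monocyte, macrophage, T cell, neutrophil, endothelial, fibroblast, keratinocyte, muscle and hepatoma lists were detected in every group, with Ckm, of muscle, at 0 in 1 anti-CXCL10 library or more. Ncr1 of the NK cell list and both of the B and plasma cell list (Cd79a, Ms4a1) and of the dendritic cell list (Flt3, Xcr1) were not analysed here, so those lists stand on their other genes. Ccr2, the chemokine receptor of Ly6C-high monocytes, averaged 4.82 FPKM in anti-CXCL10 + GSK343 tumors, 8.86 FPKM in control antibody + GSK343 tumors, 4.64 FPKM in anti-CXCL10 tumors and 4.45 FPKM in control antibody tumors. It fell by 0.75 with anti-CXCL10 in GSK343 tumors (adjusted p = 0.0299, limma), beside the fall of Ly6c2. Plac8, another monocyte gene, averaged 90.3, 127, 86.1 and 88.0 FPKM in these groups, and its difference of -0.45 between the antibodies with GSK343 had an adjusted p of 0.198. The summed FPKM of the 12 monocyte genes ranged from 141 to 186 in anti-CXCL10 + GSK343 tumors, from 173 to 446 in control antibody + GSK343 tumors, from 117 to 190 in anti-CXCL10 tumors and from 128 to 207 in control antibody tumors. For the 12 T cell genes it ranged from 53.5 to 83.6 in anti-CXCL10 + GSK343 tumors, from 84.3 to 221 in control antibody + GSK343 tumors, from 48.6 to 78.6 in anti-CXCL10 tumors and from 39.6 to 66.4 in control antibody tumors. For both lists the control antibody + GSK343 libraries reached highest, and the T cell sum of each of them lay above all other libraries.

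For each list, the log2(FPKM + 1) values of its genes were averaged in each library to give a marker score. Ly6c2 followed the monocyte score with r = 0.93 over all libraries and 0.79 within groups, the NK cell score with 0.92 and 0.84, and the T cell score with 0.91 and 0.73 (0.66, 0.75 and 0.50 within groups without the 2 libraries farthest in the score). Its values with the macrophage score were 0.88 and 0.63 (0.69 within groups without 2 libraries) and with the endothelial score 0.61 and 0.71 (0.75). Ly6i followed the fibroblast score (0.88, and 0.86 within groups) and the skeletal muscle score (0.81 and 0.77) as well as the monocyte score (0.87 and 0.62). Within groups and without the 2 libraries farthest in the score, these 3 were 0.74, 0.57 and 0.53. Over all libraries Ly6i also had 0.78 to 0.84 with the T cell, NK cell, B and plasma cell, dendritic cell and macrophage scores. Within groups those values were 0.23 to 0.59. The spread of Ly6i within groups was largest in control antibody + GSK343 tumors, which helped pick it. Over all libraries Ly6a had -0.58 with the fibroblast, -0.56 with the dendritic cell and -0.51 with the skeletal muscle score. It had -0.50 with the T cell and -0.44 with the NK cell score. Without the 2 libraries farthest in the score these came to -0.20, -0.23, -0.07, -0.18 and -0.37. With the other lists Ly6a lay between -0.37 and 0.30. Ly6e lay between -0.26 and 0.18 with every list over all libraries. Within groups its lowest values were -0.43 with the neutrophil score (-0.69 without the 2 libraries farthest in the score), -0.39 with the keratinocyte score (-0.11) and -0.34 with the monocyte score (-0.44). The part of any of these cells in the Ly6 levels was not tested.

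The skeletal muscle markers need naming because the 3 libraries highest in them are of 1 group. The 14 genes summed to 14.1 to 117 FPKM in anti-CXCL10 + GSK343 tumors, 49.1 to 2429 in control antibody + GSK343 tumors, 6.18 to 304 in anti-CXCL10 tumors and 20.9 to 98.8 in control antibody tumors. Control antibody + GSK343 replicates 3, 4 and 5 had muscle scores of 4.81, 6.78 and 4.6, and replicates 1 and 2 had 1.83 and 2.44. Next came anti-CXCL10 replicates 4 and 3, with scores of 3.95 and 3.56. They had 0.909 and 0.789 FPKM of Ly6i and 638 and 462 FPKM of Ly6a. The 3 libraries with the highest scores held the 3 highest values of Ly6i and the 3 lowest of Ly6a among all 19 libraries. Ly6c1, in contrast, had 174 FPKM in control antibody + GSK343 replicate 2, above replicates 4 and 5 of that group. Without those 3 libraries, Ly6i had 2.24 and 4.45 FPKM in the 2 left in the group, still above each control antibody library. Its difference with GSK343 was then 1.07 ± 0.28 in place of 1.86. The share of muscle tissue in these values was not tested.

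**Figure D4:**
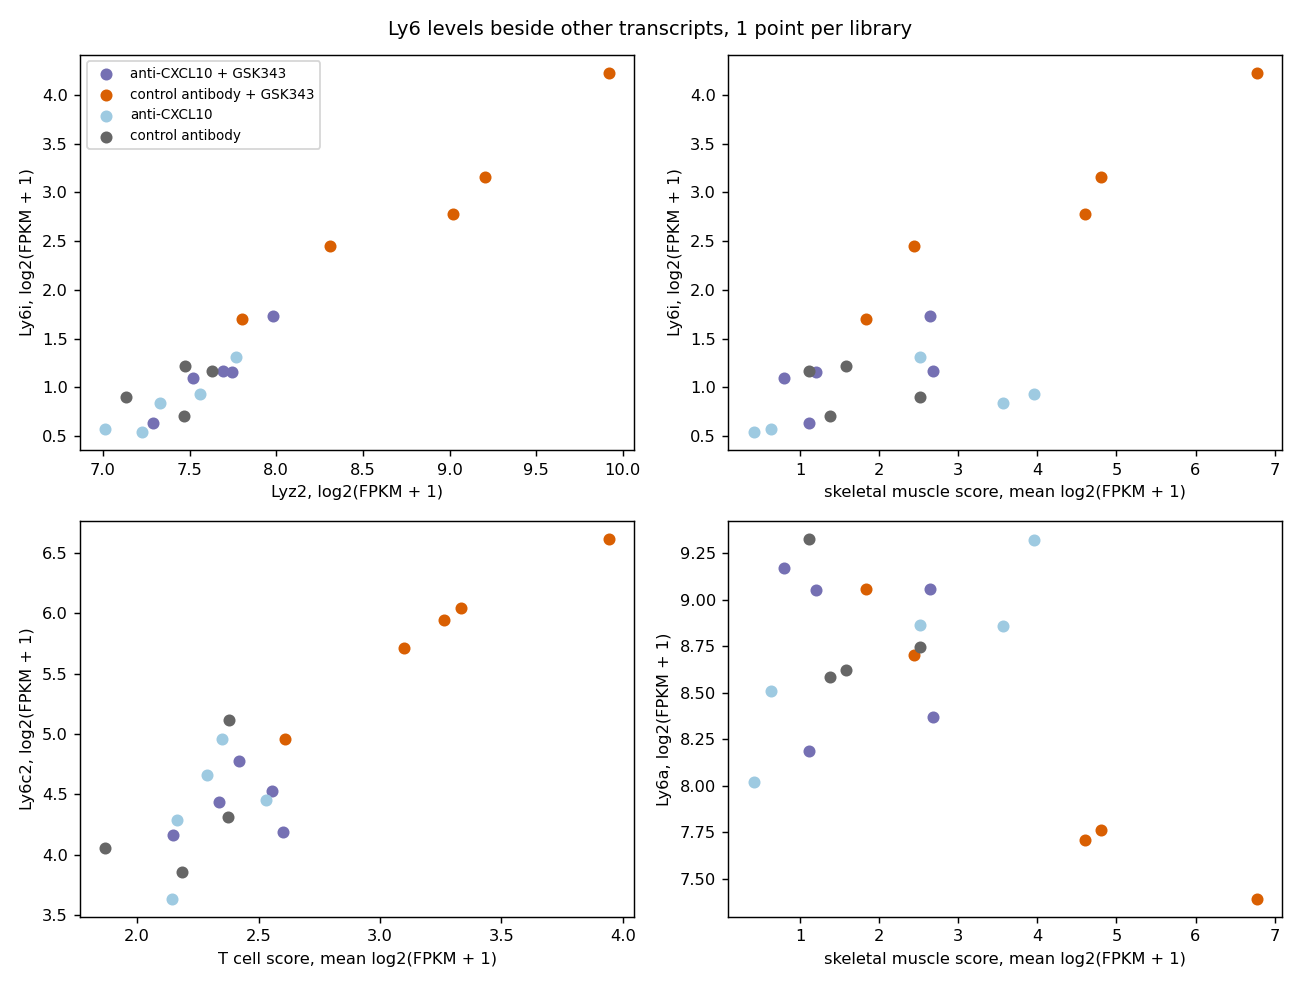
Log2(FPKM + 1) of Ly6i against Lyz2 and against the skeletal muscle score, of Ly6c2 against the T cell score, and of Ly6a against the skeletal muscle score, with 1 point for each of 19 libraries. Over all 19 libraries Ly6i follows Lyz2 (r = 0.98), and the 3 control antibody + GSK343 libraries with muscle scores of 4.6 to 6.78 are the highest in Ly6i and the lowest in Ly6a.

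The transcript of the enzyme that GSK343 inhibits did not pass in any of the 4 comparisons. Ezh2 averaged 27.1 ± 2.98 FPKM in anti-CXCL10 + GSK343 tumors, 25.3 ± 3.17 in control antibody + GSK343 tumors, 24.97 ± 1.69 in anti-CXCL10 tumors and 29.7 ± 3.24 in control antibody tumors (SD, n = 5, 5, 5 and 4), and its lowest adjusted p in the 4 comparisons was 0.244 (limma). GSK343 blocks the enzyme and the antibody the chemokine, so neither transcript level checks the labels. The sum of FPKM per library was 533606 to 629679, and within a group libraries had r of 0.942 to 0.977 with each other, but the number of fragments behind each value is unknown. Ly6i, near 1 FPKM in 3 groups, had the lowest level of the 5.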

How the data were processed

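The deposited table holds FPKM per gene for 19 of 20 samples; the unit was inferred from the values (length-weighted column sums varied by 0.790%, plain sums by 4.06%). StringTie 1.3.3b, HTSeq 0.6.0, HISAT2 2.1.0, TopHat2 2.1.0 and Trimmomatic 0.33, with builds GRCm38 and mm10, are named per the submitters' processing notes, which give no roles, so the strand setting and depth are unknown. The design text speaks of 3 replicates, the labels number 5. Rows of 1 gene ID were added (8 IDs, 21 of 14646 rows). Genes with at least 1 FPKM in at least 5 libraries (14385; 248 removed) entered limma 3.58.1 on the log2(FPKM + 1) scale (4 group means, trend and robust moderation; R 4.3.3, statmod 1.5.0) and Benjamini-Hochberg adjustment, threshold 0.05. This scale understates changes of low genes. The code was tested on simulated data. Members and lists were chosen with earlier results of these data known. Members, the 2 largest changes called per list, defining markers, the 3 genes most like each member and neighbours within 500 kb are named; Cxcl9, Lyz2 and Ezh2 values beyond that rule, and other genes, were chosen after their values were seen. Alternatives were another pseudocount, other filters, scalings and moderation, a replicate block, the compared groups alone, summed Ly6c genes and libraries left out.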

Additional observations from a re-analysis of the deposited data

How the results depend on the processing

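Of 923 alternative values of the main results, 826 kept their direction and their side of the threshold, or moved by less than the spread between replicates. Ly6c2 for anti-CXCL10 with GSK343 lost its call in 1 of its alternatives, when the 3 muscle-high control antibody + GSK343 libraries were left out (-1.03, adjusted p = 0.113, limma). In that setting, for GSK343 with the control antibody, anti-CXCL10 with GSK343 and the interaction, the differences were 1.07, -0.91 and -0.76 for Ly6i, and 0.061, -0.11 and -0.0060 for Ly6a. A pseudocount of 0.1 in place of 1 gave 2.52 and -2.27 for Ly6i in the first and second of these. Ly6c1 for anti-CXCL10 with GSK343 passed in fits of the compared groups alone (-0.80, adjusted p = 0.0237), with the replicate block (-0.80, 0.0478), with median-ratio scaling (-0.82, 0.0496) and as the sum with Ly6c2 (-0.97, 0.0273), so that 2 Ly6 genes passed in place of 1 in each of the first 3. Without the muscle-high libraries 0 passed. Ly6e for anti-CXCL10 with GSK343 was 0.026 after quantile normalization. The causes of these changes were not tested.

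Leaving out 1 library at a time, differences near 0 changed sign. They ranged from -0.12 to 0.21 for Ly6a, from -0.23 to 0.14 for Ly6c1 and from -0.17 to 0.16 for Ly6c2 for GSK343 with anti-CXCL10. For anti-CXCL10 without GSK343 they ranged from -0.26 to 0.068, from -0.12 to 0.26 and from -0.10 to 0.32 for the same genes. For anti-CXCL10 with GSK343, Ly6e ranged from -0.037 to 0.053 and Ly6c1 from -0.92 to -0.69, and 1 to 2 Ly6 genes passed.

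The count of all genes passing varied more. It was 787 for GSK343 with the control antibody, 299 to 1389 when 1 library was left out, 233 in the compared groups alone and 15 without the muscle-high libraries. For anti-CXCL10 with GSK343 it was 1456, 837 to 1829 with 1 library left out, 938 among genes averaging at least 5 FPKM and 497 without the muscle-high libraries. For anti-CXCL10 without GSK343 it was 2, with 0 to 2 when 1 library was left out, 1 in the compared groups alone and 0 without the muscle-high libraries. For GSK343 with anti-CXCL10 it was 0, and 0 to 1 when 1 library was left out. For the interaction it was 9, with 0 to 476 when 1 library was left out, 5 among genes averaging at least 5 FPKM and 1 without the muscle-high libraries.

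The labels give the groups the same replicate numbers. The deviations of same-numbered libraries had correlations of -0.18 to 0.32. In some pairs the same-numbered library was the most alike, in others it was not, so these values do not settle the pairing. The library names also number the control antibody + GSK343 libraries otherwise than their replicate labels do. Whether the numbers pair the tumors is therefore unknown. The main fit does not use them, and the replicate block is given only as an alternative fit. With the replicate number as a block, 0 genes passed for anti-CXCL10 without GSK343 and 57 for the interaction. For anti-CXCL10 with GSK343, 12 of 14 skeletal muscle and 4 of 12 endothelial genes were called in place of 1 and 2. For GSK343 with the control antibody, 2 in place of 4 B and plasma cell genes were called. Of the Ly6/uPAR list, which holds Bambi by mistake, 1 in place of 2 genes was called there. The Ly6c1 difference for anti-CXCL10 without GSK343 was -0.019. Depth is unknown, so no counting error could be given, and a change of Ly6i near 1 FPKM is understated on this scale.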
